A study of Mus musculus with 8 samples.

Results

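The genes of the interleukin-12 (IL-12) receptor, STAT4 and interferon-γ were examined in CD8+ T cells separated by their surface level of IL-18Rα, the binding chain of the interleukin-18 receptor. The members were 9 genes taken by name from a table of 47493 genes: the receptor chains *Il12rb1*, *Il12rb2* and *Il27ra*, the kinases *Tyk2* and *Jak2*, the transcription factor *Stat4*, and interferon-γ with both of its receptor chains, *Ifng*, *Ifngr1* and *Ifngr2*. All 9 had a row and all 9 passed the filter on low values, a mean of at least 1 FPKM (fragments scaled by transcript length and library depth) over the 8 libraries.

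RNA was sequenced from endogenous CD8+ T cells of 4 female C57BL/6 mice, 6 to 8 weeks old at tumor inoculation, and each mouse gave 1 flow-through and 1 IL-18Rαhi-enriched library, so that n = 4 per fraction. Which libraries came from the same mouse was taken from their replicate numbers. Every mouse received 200000 B16F10 melanoma cells into the skin on day 0, 300 mg/kg cyclophosphamide on day 3, and 2000000 Thy1.1+ Pmel-1 T cells, which carry a transgenic receptor for the melanoma antigen gp100, on day 5. Human IL-2 (10000 IU daily for 3 days) followed from day 5, and the CD4-depleting antibody GK1.5 (200 μg weekly) from day 10. On day 25, Thy1.1-negative CD8+ T cells of inguinal lymph nodes and spleen were purified with a CD8 kit that works by negative selection, meant to remove other cell types, and with Thy1.1 beads. An antibody to IL-18Rα held the enriched fraction on a column, and the cells that passed through it were the control. Both fractions therefore come from mice given the whole regimen, no library is from an untreated mouse, and the comparison is between cells of different IL-18Rα level within mice.

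IL-12 is a cytokine of dendritic cells and macrophages that binds a receptor of the IL-12Rβ1 and IL-12Rβ2 chains. TYK2 and JAK2, the kinases bound to these chains, phosphorylate STAT4, which moves to the nucleus and, in T and NK cells, favors transcription of *Ifng*. Interferon-γ in turn acts on most cells through IFNGR1 and IFNGR2, which signal by JAK1 and JAK2, and IL-12 together with IL-18 is a known strong inducer of interferon-γ.

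The promoters of the inducible receptor chain and of the cytokine are shown because *Il12rb2* and *Ifng* were the 2 members with a match to the GAS motif, the DNA element TTCNNNGAA bound by STAT proteins. The windows are the 250 bases before the annotated start (RefSeq, GRCm38.p6), 5′ to 3′ on the strand of the gene, with the match in capitals. They lie at chr6:67376189-67376438 (minus strand) for *Il12rb2* and at chr10:118440796-118441045 (plus strand) for *Ifng*.
Il12rb2: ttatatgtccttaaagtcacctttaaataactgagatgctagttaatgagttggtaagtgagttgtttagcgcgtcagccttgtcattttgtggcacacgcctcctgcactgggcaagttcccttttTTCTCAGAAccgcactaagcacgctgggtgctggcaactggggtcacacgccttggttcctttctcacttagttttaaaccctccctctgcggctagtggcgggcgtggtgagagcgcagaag
Ifng: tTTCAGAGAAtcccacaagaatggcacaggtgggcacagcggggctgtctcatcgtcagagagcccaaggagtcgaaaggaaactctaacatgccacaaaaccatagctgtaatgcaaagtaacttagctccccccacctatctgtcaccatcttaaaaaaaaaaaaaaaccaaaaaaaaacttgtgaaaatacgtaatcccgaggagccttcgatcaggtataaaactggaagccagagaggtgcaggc
The match began 123 bases before the start of *Il12rb2* and 249 bases before that of *Ifng*. Of the 9 members, 7 had a promoter entry, with 8 windows in all, and 2 windows held the motif. Over 32851 promoter windows of the same length, 7.02% held it on either strand, as the motif reads alike on both. The T-box core GGTGTGA, present in 3.33% of all windows, and the AP-1 motif TGANTCA, present in 6.75%, had no match in the 8 windows on either strand. These are descriptions of letters and not of binding.

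The 8 libraries reached 1 FPKM for 11706 to 12288 genes and held an estimated 14500000 to 18600000 fragments each. Library pairs correlated across genes (no independent replicates) at 0.943 to 0.986 within the flow-through, 0.966 to 0.987 within the enriched fraction and 0.888 to 0.967 between them, so no library was a copy of another. *Il18r1*, which encodes the selected IL-18Rα, was at 22.2 to 37.2 FPKM in the flow-through and 106.6 to 116.0 FPKM in the enriched libraries and was thus higher in the fraction labelled as enriched. Markers of CD8 T-cell identity (9 genes) summed to 1385 to 2627 FPKM in the flow-through and 2647 to 2836 FPKM in the enriched libraries. Flow-through replicate 1 had the lowest sum of these markers and the highest of erythroid genes, 2599 FPKM, where the other libraries spanned 202 to 1441 FPKM. Genes used as markers of other cells were present: NK genes (11) summed to 70.5 to 181 and 174 to 317 FPKM in flow-through and enriched libraries, γδ T-cell genes (7) to 69.4 to 97.6 and 92.7 to 199, CD4 T-cell genes (3) to 3.23 to 8.63 and 24.4 to 41.6, B-cell genes (7) to 24.6 to 63.1 and 40.6 to 82.3, and myeloid genes (11) to 536 to 2220 and 971 to 3330. In limma's fit, 7 of 9 NK genes above the filter, 3 of 7 γδ, 3 of 3 CD4, 1 of 5 B-cell and 6 of 11 myeloid genes were higher in the enriched fraction and none was lower, while 1 of 7 erythroid genes was lower; at an unadjusted p under 0.05 none of the NK, γδ, CD4, B-cell or myeloid genes was lower either. Among all genes tested in that fit, 14.1% were higher and 13.7% lower. Of the 5 melanoma genes, 4 were at 0 in every library.

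To compare the axis between the fractions, each member was tested in a fit of all genes (limma on log2(FPKM + 1), Benjamini-Hochberg adjusted p under 0.05). Of the 9 members, 5 were higher in the IL-18Rαhi-enriched fraction and 0 lower: *Il12rb1*, *Il12rb2* and *Ifng* by 2.57 to 3.20 times in mean FPKM, and *Tyk2* and *Jak2* by 1.25 to 1.31 times. Among all 12166 genes tested, 14.1% were higher and 13.7% lower. Without adjustment, at p under 0.05, 6 members were higher and 0 lower, against 20.0% and 21.3% of all genes. The libraries of the fractions did not overlap for 6 members, all higher in the enriched fraction, where 16.4% of all genes were separated in that direction and 15.9% in the other. With the mouse as a block, *Stat4* joined the higher members and *Ifngr2* was lower, giving 6 and 1 members against 22.2% and 22.7% of all genes. With each library scaled by its CD8 T-cell identity genes (T-cell scaling), which shifted the whole set of genes to a median log2 fold change of -0.35, 3 members were higher, *Il12rb1*, *Il12rb2* and *Ifng*, and 0 lower, against 4.16% and 9.87% of 12183 genes; with the mouse as a block as well, 3 members were higher and 1, *Ifngr2*, lower, against 4.85% and 20.5%. *Tyk2* and *Jak2* lost their calls under that scaling, and the sign of *Jak2* turned. Its factor was 0.573 for flow-through replicate 1, 0.913 to 1.08 for the other flow-through libraries and 1.115 to 1.186 for the enriched ones. That scaling was not fitted without flow-through replicate 1, so the part of this library in the lost calls was not tested. In bulk RNA, fewer cells of a type and less RNA per cell cannot be told apart.

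**Figure D1:**
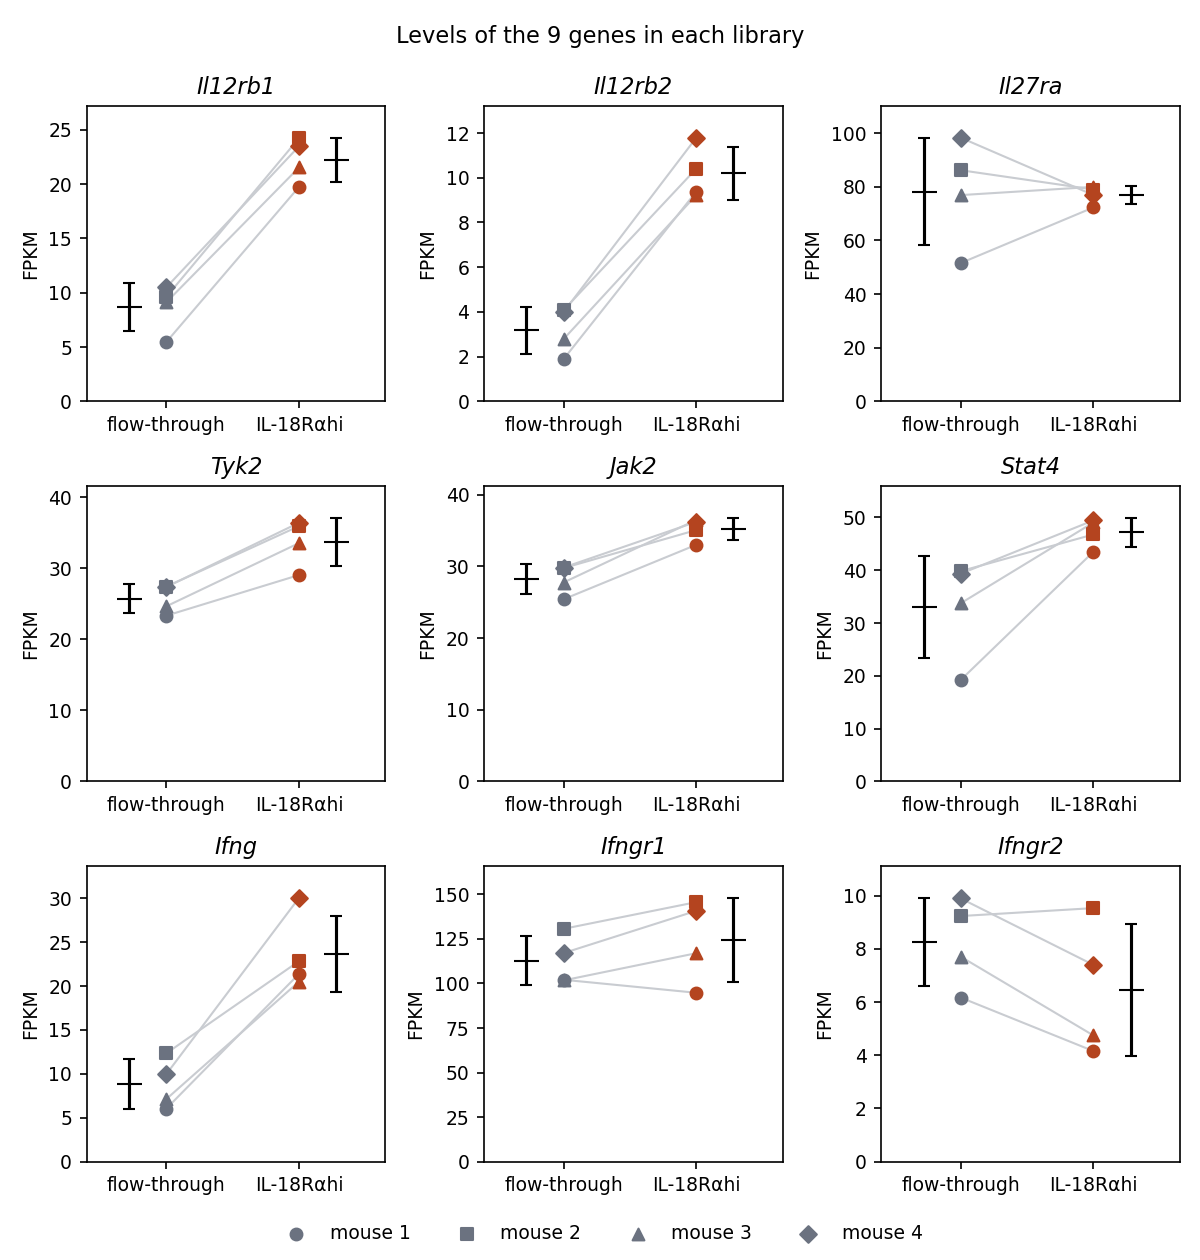
FPKM (vertical axes, from 0) of each gene in the flow-through (grey) and IL-18Rαhi-enriched (red) libraries, with lines joining the libraries of a mouse and bars for mean ± SD (n = 4). The fractions do not overlap for Il12rb1, Il12rb2, Tyk2, Jak2, Stat4 and Ifng, and flow-through replicate 1 is the lowest library for these 6 genes.

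The receptor chains of IL-12 were the members with the largest log2 fold changes beside *Ifng*. *Il12rb1* (mm10 chr8:70808449-70821424, plus strand), whose product binds the p40 chain shared by IL-12 and IL-23 and associates with TYK2, was at 5.45, 9.61, 9.12 and 10.5 FPKM in flow-through replicates 1 to 4 and at 19.7, 24.2, 21.5 and 23.5 FPKM in enriched replicates 1 to 4. The lowest enriched library lay well above the highest flow-through library. The means were 8.67 ± 2.22 and 22.2 ± 2.02 FPKM (SD, n = 4), and the log2 fold change was 1.30 (SE 0.18, adjusted p = 0.0020 by limma). Within single mice the enriched level was 2.24 to 3.62 times the flow-through level, and 2 of 70 arrangements of the libraries gave as large a difference of means (exact two-sided permutation p = 0.0286, the smallest that 4 against 4 can give). Under T-cell scaling the log2 fold change was 0.96 (limma adjusted p = 0.0049), and without flow-through replicate 1 it was 1.11.

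*Il12rb2* (chr6:67291318-67376188, minus strand) encodes the chain that recruits STAT4 and is the part of the receptor whose expression is most restricted to activated T and NK cells. Its values were 1.89, 4.08, 2.78 and 3.99 FPKM in the flow-through and 9.38, 10.4, 9.23 and 11.8 FPKM in the enriched libraries. The fractions were again separate, and enriched replicates 1 and 3 were close to each other at the lower end. The means were 3.18 ± 1.05 and 10.2 ± 1.18 FPKM (SD, n = 4), a ratio of 3.20, with a log2 fold change of 1.45 (SE 0.19, adjusted p = 0.0018 by limma). It was 1.16 under T-cell scaling (limma adjusted p = 0.0025) and 1.29 without flow-through replicate 1. Of the exonic bases of *Il12rb2*, 40.0% are shared with *Serbp1*, a gene on the opposite strand that was at 398 to 532 FPKM in the flow-through and 332 to 425 FPKM in the enriched libraries. Because the abundance estimates were made without the strand, fragments of the shared bases cannot be assigned with certainty to either gene. The level of *Serbp1*, which comes from the same estimates, was lower in the enriched library of 4 of 4 mice. The part of *Serbp1* fragments in the level of *Il12rb2* was not tested.

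*Il27ra* (chr8:84030294-84042589, minus strand), the IL-27 receptor chain that pairs with gp130, did not follow the IL-12 chains. It stood at 51.5, 86.1, 76.9 and 98.2 FPKM in the flow-through and 72.3, 78.9, 79.9 and 76.9 FPKM in the enriched libraries. The flow-through libraries covered the whole range of the enriched ones, with replicate 1 the lowest of all 8 and replicate 4 the highest. The log2 fold change was 0.02 (95% interval -0.39 to 0.42, limma adjusted p = 0.957), and its sign turned under T-cell scaling, to -0.35 (95% interval -0.67 to -0.03, limma adjusted p = 0.11), and to -0.17 without flow-through replicate 1. The level was higher in the enriched library of 2 mice and lower in that of the other 2.

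Ratios of FPKM within a library do not depend on how libraries are scaled. The ratio of *Il12rb2* to *Il12rb1* was 0.346, 0.424, 0.305 and 0.381 in the flow-through and 0.475, 0.430, 0.429 and 0.502 in the enriched libraries. It was higher in the enriched library of 4 of 4 mice, although mouse 2 differed little. The means were 0.364 ± 0.051 and 0.459 ± 0.036 (SD, n = 4; exact two-sided permutation p = 0.0286), and with the p-values of the 2 ratios chosen for testing adjusted together this was 0.0571, which misses 0.05. The ratio of *Il12rb1* to *Il27ra*, which was chosen after its values were seen and was not tested, was 0.106 to 0.119 in the flow-through and 0.269 to 0.307 in the enriched libraries. These ranges are narrow beside the spread of either gene in the flow-through, and *Il12rb1* and *Il27ra* moved together across those 4 libraries.

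**Figure D2:**
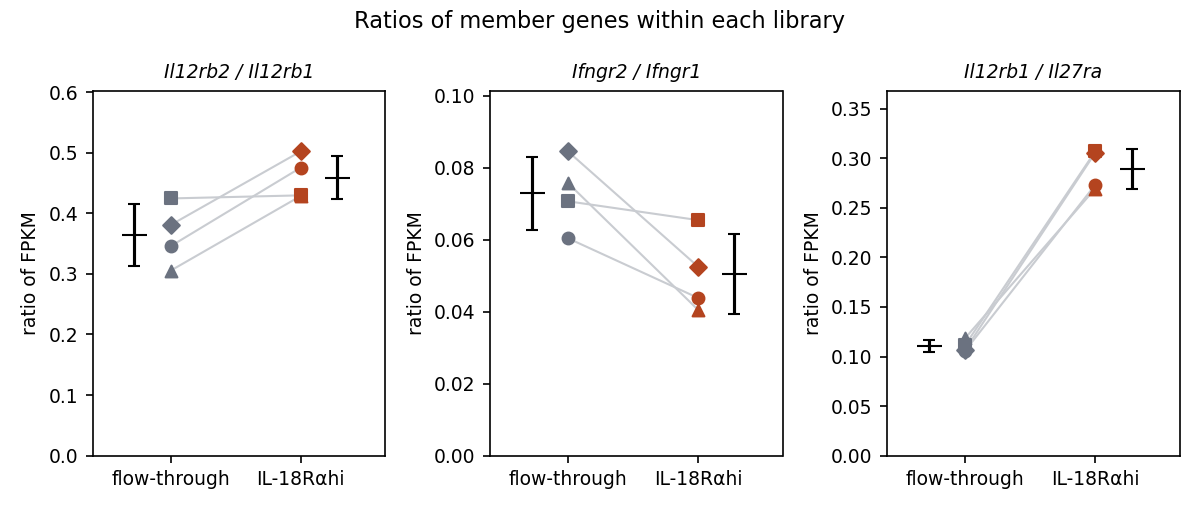
Ratios of FPKM (vertical axes, from 0) of 3 pairs of genes within each library, with the libraries of a mouse joined and bars for mean ± SD (n = 4); the shapes for mice 1 to 4 are circle, square, triangle and diamond. Il12rb2 to Il12rb1 is higher and Ifngr2 to Ifngr1 lower in the enriched library of all 4 mice, and Il12rb1 to Il27ra is 0.269 to 0.307 in every enriched library.

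The kinases bound to the receptor differed little in size but evenly between mice. *Tyk2* (chr9:21104068-21131243, minus strand), the kinase of IL-12Rβ1, was at 23.3, 27.4, 24.6 and 27.4 FPKM in the flow-through and 29.0, 35.9, 33.5 and 36.4 FPKM in the enriched libraries. The fractions did not overlap, and replicate 1 was the lowest library of each. The means were 25.7 ± 2.04 and 33.7 ± 3.36 FPKM (SD, n = 4), the log2 fold change was 0.38 (SE 0.09, adjusted p = 0.0208 by limma), and the ratio within a mouse was 1.25 to 1.36. Of its exonic bases, 8.07% lie opposite an antisense gene that was at 1.71 to 2.85 FPKM over the 8 libraries.

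*Jak2* (chr19:29251828-29313080, plus strand), the kinase of IL-12Rβ2 and of IFNGR2, had 25.4, 29.8, 27.7 and 29.8 FPKM in the flow-through and 33.0, 35.1, 36.5 and 36.2 FPKM in the enriched libraries. As for *Tyk2*, the fractions were separate and replicate 1 was the lowest of each. The means were 28.2 ± 2.09 and 35.2 ± 1.58 FPKM (SD, n = 4), and the log2 fold change was 0.31 (SE 0.08, adjusted p = 0.0188 by limma) that turned to -0.05 under T-cell scaling (limma adjusted p = 0.851). *Tyk2* was then at 0.02 (limma adjusted p = 0.939), and both kinases lay above the shifted median of all genes. The calls of both were also lost without enriched replicate 2, 3 or 4 or without flow-through replicate 3, each time with a limma adjusted p of 0.0521 to 0.0644 and with the sign kept.

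*Stat4* (chr1:51987148-52107189, plus strand) encodes the transcription factor that the IL-12 receptor activates. It was at 19.2, 39.8, 33.7 and 39.3 FPKM in the flow-through and 43.5, 46.8, 49.0 and 49.4 FPKM in the enriched libraries. Every enriched library was above every flow-through library, but by less than the gap between flow-through replicate 1 and the other 3 flow-through libraries. The means were 33.0 ± 9.61 and 47.2 ± 2.72 FPKM (SD, n = 4), the log2 fold change was 0.55 (95% interval 0.07 to 1.03), and the limma adjusted p of 0.0815 missed the threshold. The test passed with the mouse as a block (limma adjusted p = 0.0229) and without flow-through replicate 1, where the log2 fold change was 0.32 (limma adjusted p = 0.0255). Under T-cell scaling it was 0.20 (limma adjusted p = 0.311). A transcript that shares 26.7% of the exonic bases of *Stat4*, on the same strand, was at 0.158 FPKM or less in each library.

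**Figure D3:**
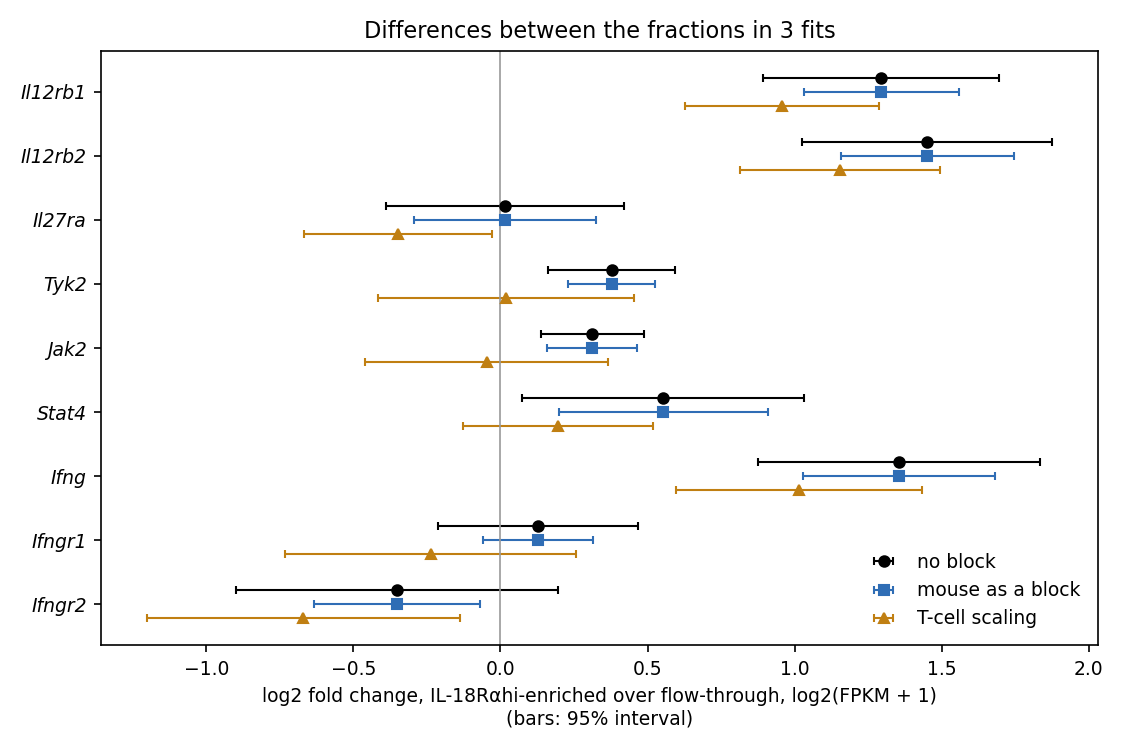
Log2 fold changes of the 9 genes (horizontal axis, enriched over flow-through on log2(FPKM + 1); bars, 95% intervals) without a block, with the mouse as a block and under T-cell scaling. Il12rb1, Il12rb2 and Ifng lie above 0 in all 3 fits; the values of Il27ra, Jak2 and Ifngr1 turn negative under T-cell scaling, and that of Ifngr2 is negative in all 3.

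*Ifng* (chr10:118441046-118445892, plus strand), the cytokine at the end of this pathway, was at 6.03, 12.3, 7.12 and 9.96 FPKM in the flow-through and 21.4, 22.8, 20.5 and 30.1 FPKM in the enriched libraries. All enriched libraries were above all flow-through libraries, enriched replicate 4 was the highest and flow-through replicate 1 the lowest. The means were 8.86 ± 2.85 and 23.7 ± 4.34 FPKM (SD, n = 4), a ratio of 2.67, and the log2 fold change was 1.35 (SE 0.21, adjusted p = 0.0035 by limma; exact two-sided permutation p = 0.0286). Single mice gave ratios of 1.85 to 3.55, the smallest in mouse 2. The log2 fold change was 1.02 under T-cell scaling (limma adjusted p = 0.011) and 1.21 without flow-through replicate 1. Another annotated transcript on the same strand shares 25.9% of the exonic bases of *Ifng* and was not analysed here.

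NK cells, γδ T cells and CD4 T cells can also express the IL-12 receptor and *Ifng*, and the summed level of each of these marker lists was higher in the enriched library of 4 of 4 mice. Single markers differed. By limma 7 of 9 NK genes above the filter were higher, but the NK-list gene of highest mean level, *Klrd1*, was not. Its level was 51.4 to 121 FPKM in the flow-through and 83.1 to 113 FPKM in the enriched libraries (limma adjusted p = 0.986). In the flow-through the whole NK list summed to 70.5 to 181 FPKM. *Tcrg-C1* of the γδ list was higher in 2 mice and lower in the other 2 (limma adjusted p = 0.563). *Ncr1*, a receptor restricted largely to NK cells, was at 0.623, 2.15, 1.17 and 2.68 FPKM in the flow-through and 7.33, 19.5, 13.3 and 27.1 FPKM in the enriched libraries. The study reported *Ncr1* and *Klrb1c* of the NK list as natural killer receptor genes raised in the IL-18Rαhi-enriched CD8+ T cells. It also reported *Cd40lg* of the CD4 list and *Blk* of the γδ list as innate-like T-cell genes raised in them. Which cells carried these transcripts was not tested. Enriched replicate 4, the highest for *Ifng*, also had the highest sums of NK and CD4 markers, 317 and 41.6 FPKM. The part of NK cells, γδ T cells and CD4 T cells in the levels of *Ifng*, *Il12rb1* and *Il12rb2* was not tested.

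**Figure D4:**
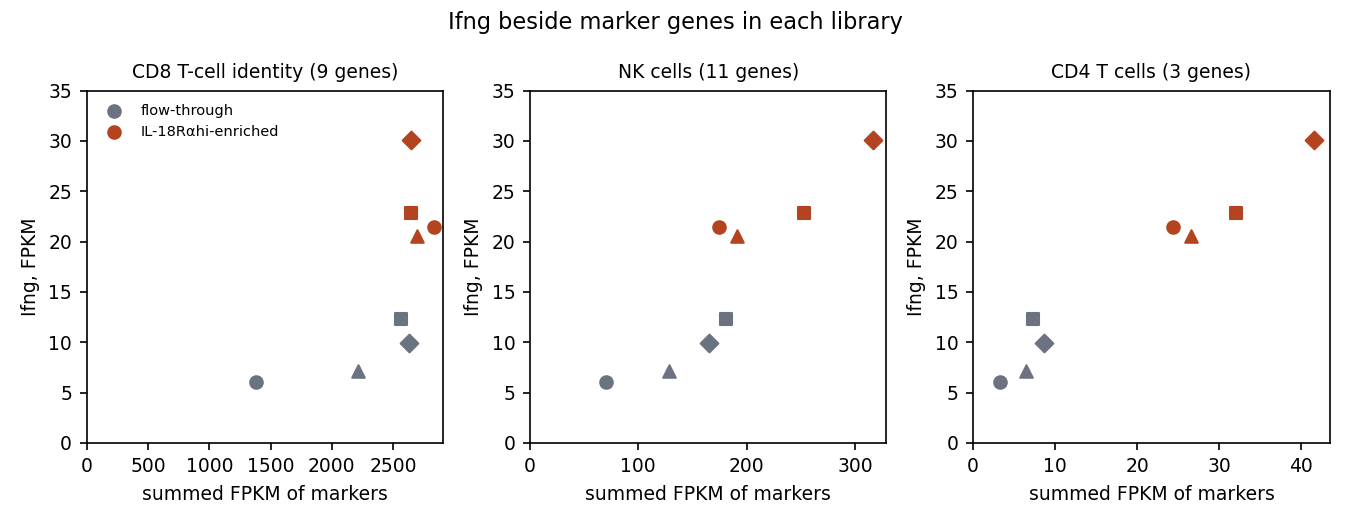
Ifng (vertical axes, FPKM) against the summed FPKM of markers of CD8 T-cell identity, NK cells and CD4 T cells (horizontal axes) in the flow-through (grey) and IL-18Rαhi-enriched (red) libraries; shapes mark mice 1 to 4 (circle, square, triangle, diamond). Enriched replicate 4 is highest for Ifng, NK and CD4 markers, while the CD8 markers of the enriched libraries lie within 2647 to 2836 FPKM.

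The genes whose levels were most like those of *Ifng* were, by Pearson correlation of log2(FPKM + 1) over the 8 libraries among 9329 genes of at least 5 FPKM on average, *Rbl2* (r = 0.995), *Anxa4* (0.995), *Cep85* (0.992), *Pqlc3* (0.992) and *Pmaip1* (0.992). These points share the mice and the difference between the fractions, so the values are a description. *Rbl2*, which encodes the p130 pocket protein of the cell cycle, was at 20.04 to 27.6 FPKM in the flow-through and 34.02 to 38.7 FPKM in the enriched libraries. *Pmaip1*, which encodes the pro-apoptotic protein NOXA, was at 4.67 to 9.41 and 14.1 to 19.3 FPKM.

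The receptor chains of interferon-γ did not follow the cytokine. *Ifngr1* (chr10:19591949-19610229, plus strand), the ligand-binding chain, was at 102.1, 130.7, 101.7 and 117.1 FPKM in the flow-through and 94.8, 145.7, 117.0 and 140.8 FPKM in the enriched libraries. The fractions overlapped, and mouse 1 gave the lowest enriched value, below its own flow-through. The means were 112.9 ± 13.8 and 124.6 ± 23.5 FPKM (SD, n = 4), and the log2 fold change of 0.13 (95% interval -0.21 to 0.47, limma adjusted p = 0.547) turned to -0.24 under T-cell scaling (limma adjusted p = 0.411).

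*Ifngr2* (chr16:91547072-91565623, plus strand), the signaling chain, had 6.17, 9.23, 7.70 and 9.90 FPKM in the flow-through and 4.15, 9.53, 4.74 and 7.40 FPKM in the enriched libraries. The fractions overlapped, with the enriched library lower in mice 1, 3 and 4 and nearly level in mouse 2. The means were 8.25 ± 1.66 and 6.46 ± 2.49 FPKM (SD, n = 4), and the log2 fold change was -0.35 (95% interval -0.90 to 0.19, limma adjusted p = 0.298; exact two-sided permutation p = 0.257). With the mouse as a block the interval was -0.64 to -0.07 (limma adjusted p = 0.0489), and under T-cell scaling the log2 fold change was -0.67 (limma adjusted p = 0.0796). The ratio of *Ifngr2* to *Ifngr1* was 0.0604, 0.0707, 0.0757 and 0.0845 in the flow-through and 0.0438, 0.0654, 0.0405 and 0.0525 in the enriched libraries. It was lower in the enriched library of 4 of 4 mice, but the fractions overlapped, as the enriched library of mouse 2 lay above the flow-through library of mouse 1 (means 0.0728 ± 0.0101 and 0.0506 ± 0.0111, SD, n = 4; exact two-sided permutation p = 0.0571, also after adjustment over the 2 ratios).

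The order of the members by mean FPKM, a level per length, was the same in both fractions for the upper 7 genes. In the flow-through it ran *Ifngr1*, *Il27ra*, *Stat4*, *Jak2*, *Tyk2*, *Ifng*, *Il12rb1*, *Ifngr2* and *Il12rb2*, and in the enriched fraction *Il12rb2* stood before *Ifngr2*. Neighbors whose ranges overlapped in the flow-through were *Stat4* and *Jak2*, *Jak2* and *Tyk2*, *Ifng* and *Il12rb1*, and *Il12rb1* and *Ifngr2*. In the enriched fraction they were *Jak2* and *Tyk2*, *Tyk2* and *Ifng*, *Ifng* and *Il12rb1*, and *Il12rb2* and *Ifngr2*, although *Il12rb2* was above *Ifngr2* in 4 of 4 enriched libraries. *Il12rb2* was thus the least abundant member in the flow-through, and the IL-12 chains were below *Il27ra* in every library of both fractions.

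The rest of the pathway was covered by 7 lists with 69 genes, of which 68 were in the table and 63 above the filter; 5 genes stand on more than 1 list. Over the 63 genes, 19 were higher in the enriched fraction and 1 lower by limma, beside 14.1% and 13.7% of all genes, and without adjustment, at p under 0.05, 25 were higher and 2 lower, beside 20.0% and 21.3%. *Il18r1*, whose product was used for the selection, is among the higher genes. Ligand chains were of low level: *Il12b*, *Il23a* and *Il27* fell under the filter, with at most 0.694 FPKM in any library, and *Il12a* was at 0.750 to 2.23 FPKM (log2 fold change -0.23, limma adjusted p = 0.462). *Il18*, the ligand of the selected receptor, rose from 0.103–1.55 FPKM in the flow-through to 2.13–3.81 FPKM (log2 fold change 1.11, limma adjusted p = 0.0244). *Ebi3*, the β chain of IL-27 and IL-35, rose from 3.73–9.44 FPKM in the flow-through to 8.92–16.5 FPKM (log2 fold change 0.82, limma adjusted p = 0.0458), with ranges that overlapped. The myeloid and B-cell marker sums were also higher in the enriched library of 4 of 4 mice. The part of such cells in the levels of *Il18* and *Ebi3* was not tested. Neither *Il18* nor *Ebi3* passed under T-cell scaling, without a filter on low values, or without enriched replicate 2 or 4, and 1 of them passed without enriched replicate 1 or 3 or flow-through replicate 1, 3 or 4.

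Of the 4 partner chains of shared receptors, *Il23r*, which joins IL-12Rβ1 to form the IL-23 receptor, rose from 0.084–0.510 FPKM in the flow-through to 1.18–3.18 FPKM (log2 fold change 1.41, limma adjusted p = 0.0043). Its fractions did not overlap. *Il6st*, which encodes gp130, was at 12.1 to 24.7 and 10.9 to 16.1 FPKM, and its log2 fold change of -0.40 missed the threshold (limma adjusted p = 0.214) and passed with the mouse as a block (limma adjusted p = 0.0159) and, at -0.74, under T-cell scaling (limma adjusted p = 0.0266). *Il6ra* (-0.17, limma adjusted p = 0.548) and *Il10rb* (0.09, limma adjusted p = 0.599) did not pass. Among the 8 other JAKs and STATs, 0 were higher and *Stat5a*, a mediator of IL-2 and IL-7 signals, was the 1 lower gene, from 33.7–44.2 FPKM in the flow-through to 25.0–26.4 FPKM (log2 fold change -0.48, limma adjusted p = 0.0091). Under T-cell scaling its value was -0.84 (limma adjusted p = 0.0616), and with the mouse as a block 2 genes of this list were higher and 1 lower. The median log2 fold change of that list was 0.06, beside -0.02 over all genes tested. Of all genes, 14.1% were higher and 13.7% lower, and 22.2% and 22.7% with the block.

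Transcription factors known to act on the *Ifng* locus had 5 of 10 genes higher and 0 lower, beside 14.1% and 13.7% of all genes. Their median log2 fold change was 0.40, and 0.10 under T-cell scaling. With the mouse as a block 5 were higher and 1 was lower, beside 22.2% and 22.7% of all genes. The lower gene was *Jun*, an AP-1 gene named after its values were seen. Its level was lower in the enriched library of 4 of 4 mice (log2 fold change -0.32, limma adjusted p = 0.0081 with the block and 0.544 without it). *Tbx21*, which encodes T-bet, the factor that directs type 1 responses, rose from 10.9–18.9 FPKM in the flow-through to 49.7–61.3 FPKM (log2 fold change 1.69, limma adjusted p = 0.00065). *Nfatc2*, which carries the calcium signal of the T-cell receptor, rose from 5.95–10.7 FPKM in the flow-through to 21.0–23.6 FPKM (1.26, limma adjusted p = 0.0015), and *Batf*, an AP-1 family factor, rose by 1.05 (limma adjusted p = 0.0032). The other 2, named after their values were seen, were *Nfatc1* (0.73) and *Runx3* (0.56). *Tbx21*, *Nfatc2* and *Batf* were the 3 that also passed under T-cell scaling, where 4.16% of all genes were higher. Of the 10 STAT4 target genes, 5 were higher and 0 lower, beside 14.1% and 13.7% of all genes, with a median of 0.61. Under T-cell scaling 4 were higher and 0 lower, beside 4.16% and 9.87%, with a median of 0.26. With the mouse as a block 8 were higher and 0 lower, beside 22.2% and 22.7% of all genes. These counts and medians include *Il18r1* (1.85, limma adjusted p = 0.00029), whose product was used for the selection. Its call is therefore a check of the labels and not a result about the list. The higher genes also included *Tbx21*, which is on both lists, and *Il18rap* (1.71, limma adjusted p = 0.0016), the partner chain of the IL-18 receptor. Another, named after its value was seen, was *Furin* (0.63), a protease.

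**Figure D5:**
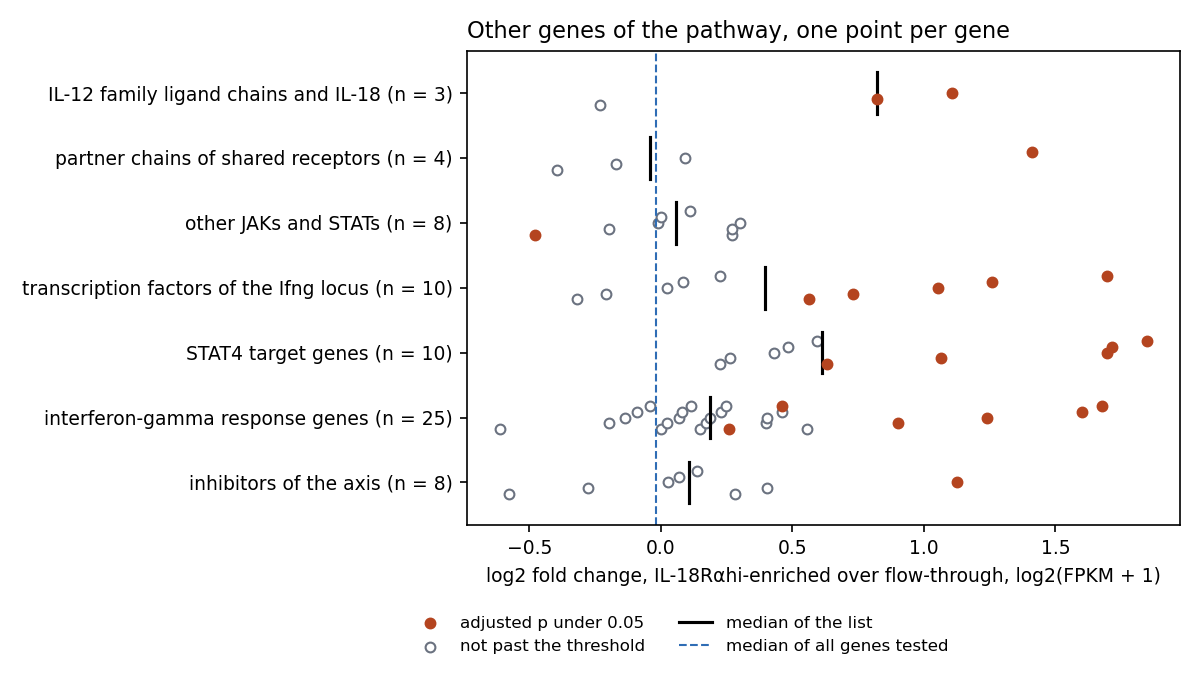
Log2 fold changes (horizontal axis, enriched over flow-through on log2(FPKM + 1), without a block) of the genes above the filter on 7 pathway lists; filled points passed an adjusted p of 0.05, bars are list medians and the dashed line is the median of all genes tested. In the list of interferon-γ response genes 6 of 25 points are filled, and most of the others lie within 0.5 of 0. The medians of 4 lists are negative under T-cell scaling, which is not drawn.

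Interferon-γ response genes were examined as the output of the receptor. Of 28 listed genes, 27 were in the table and 25 were above the filter. Of these, 6 were higher and 0 lower, beside 14.1% and 13.7% of all genes. The median log2 fold change was 0.19 and turned to -0.18 under T-cell scaling. There 3 genes were higher and 2 lower, beside 4.16% and 9.87% of all genes. The counts of this list changed when 1 library was left out: 1 gene was higher without enriched replicate 2 or 4, 2 without enriched replicate 3 and 3 without flow-through replicate 3. Without flow-through replicate 1, 4 genes of the list were lower, and 1577 of all genes tested were lower, beside 1664 with every library. Among all genes tested, 1107 to 1191 were higher without enriched replicate 2, 3 or 4 or flow-through replicate 3, beside 1720 with every library. With the mouse as a block, 9 genes of the list were higher and 1 lower, beside 22.2% and 22.7% of all genes. *Ciita*, the master regulator of MHC class II genes, rose from 0.607–1.67 FPKM in the flow-through to 2.78–8.60 FPKM (log2 fold change 1.60, limma adjusted p = 0.0070). *Cd74*, the invariant chain of MHC class II, rose from 97.7–317 FPKM in the flow-through to 372–1027 FPKM (1.68, limma adjusted p = 0.0182), and *Cxcl10*, a chemokine, rose from 2.80–6.54 FPKM in the flow-through to 7.24–11.8 FPKM (0.90, limma adjusted p = 0.0218). The other 3, named after their values were seen, were the chemokine *Cxcl9* (1.24), the immunoproteasome subunit *Psmb8* (0.46) and the guanylate-binding protein *Gbp7* (0.26), whose sign turned under T-cell scaling, to -0.09. *Ciita*, *Cd74* and *Cxcl9* were the 3 that stayed higher under that scaling. *Ciita* and *Cd74* are expressed at high levels by B cells, dendritic cells and macrophages, and the Cxcl chemokines can be made by dendritic cells and macrophages. The B-cell and myeloid marker sums given above were higher in the enriched library of 4 of 4 mice. The part of such cells in these values was not tested.

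Of the 8 inhibitors of the axis, 1 was higher and 0 lower, beside 14.1% and 13.7% of all genes tested. The mouse block gave 2 and 1, beside 22.2% and 22.7%. T-cell scaling gave 1 and 2, beside 4.16% and 9.87%, and turned the median log2 fold change from 0.10 to -0.25. The lower gene with the block, named after its values were seen, was *Socs3*, lower in 4 of 4 mice. Its log2 fold change was -0.58 (limma adjusted p = 0.0015 with the block and 0.149 without it). The lower genes under T-cell scaling were *Socs3* (-0.93, limma adjusted p = 0.0266) and, also named afterwards, *Usp18* (-0.62, limma adjusted p = 0.0402). *Cish*, a suppressor of cytokine signaling induced by STAT5, rose from 4.49–6.97 FPKM in the flow-through to 9.53–17.8 FPKM (log2 fold change 1.13, limma adjusted p = 0.0045), and it also passed under T-cell scaling (0.80, limma adjusted p = 0.0399).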

How the data were processed

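Poly(A) RNA was made into stranded paired-end libraries. The deposited values are FPKM, which the authors obtained by mapping reads to mm10 with TopHat and estimating levels with Cufflinks 2.1.1, at default library settings that do not use the strand; the annotation release is not given in the sources used here. FPKM carry no exact depth, so depth was estimated from genes of a single transcript of at least 1500 bases with under 0.2 FPKM, and no counting interval was given. Fractions and replicate numbers came from the labels.

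The members and the gene lists were chosen with earlier results of these data known. Fractions were compared over 4 libraries each with limma 3.58.1 (R 4.3.3) on log2(FPKM + 1) with a mean-variance trend, for all genes of at least 1 FPKM on average, with Benjamini-Hochberg adjustment over all of them; this scale understates changes of low genes. The script was tested on simulated data. Exact two-sided permutation of the libraries, 4 against 4 and without the pairing by mouse, served for single values (scipy 1.17.1). The labels number the libraries of each fraction 1 to 4, and libraries of the same number were taken as those of 1 mouse. Deviations from the fraction means correlated at 0.308 to 0.660 between same-numbered libraries and at -0.5995 to 0.4124 between differently numbered ones. For each enriched library the highest value was with the flow-through library of its number. The fit without the block is the main one, as the study compared 2 groups. T-cell scaling divided FPKM by the geometric mean of 9 CD8 T-cell identity genes.

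All members were named, and in each pathway list the up to 3 genes with the lowest adjusted p under 0.05, all genes of lists of 4 or fewer and the 5 genes most like *Ifng*. Where entries shared a name (256 entries), the one of higher mean was used for lists. Coordinates and shared exonic bases are from GENCODE M21 on mm10, in which 98.9% of the table's identifiers were found. Promoter windows were cut to the 250 bases before the start, and *Il12rb1* and *Il27ra* had no entry. List counts and medians include a few genes that are not named here. The planned search of protein sequences for the WSXWS motif was not made. Alternatives were another pseudocount, filters, scalings, the block, no variance trend and leaving out each library; T-cell scaling together with the block was added after the data were seen.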

Additional observations from a re-analysis of the deposited data

Results flagged for a closer look

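No library lay far from the others of its fraction by Dixon's 95% criterion in any of 24 groups examined, which were the 9 genes and the 3 ratios in each fraction, where chance gives 1.2. Sums of marker genes were not examined in this way.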

How the results depend on the processing

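Over 16 alternatives, *Il12rb1*, *Il12rb2* and *Ifng* kept their direction and stayed past the threshold in 16, and *Tyk2* and *Jak2* passed in 10. The replicate block gave 6 higher and 1 lower members, 2705 higher and 2763 lower genes, and 28 higher and 5 lower pathway genes. T-cell scaling gave 3 higher members, 507 higher and 1203 lower genes, and 11 higher and 5 lower pathway genes; with the block added, there were 3 higher and 1 lower members, 591 higher and 2496 lower genes, and 12 higher and 5 lower pathway genes. Under T-cell scaling with or without the block, log2 fold changes reversed to -0.35 for *Il27ra*, -0.047 for *Jak2* and -0.24 for *Ifngr1*. Leaving out 1 library gave 3 to 6 higher members (3 without enriched replicate 2, 3 or 4 or flow-through replicate 3), 1107 to 1813 higher and 939 to 1780 lower genes, and 12 to 19 higher and 1 to 7 lower pathway genes, the 7 without flow-through replicate 1. *Il27ra* then ran from -0.17 to 0.14. Fits without a library have fewer samples; the cause of the other shifts was not tested. The block changed the call of *Stat4* and *Ifngr2* and of no other member. The exact permutation took the libraries as 4 against 4, did not keep the pairs of a mouse and cannot go below 0.0286.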
